A study of Mus musculus with 23 samples.

Results

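The genes examined here encode the proteins of the mitochondrial ribosome. They were taken as every array probe whose gene symbol starts with Mrpl or Mrps followed by a digit. This rule, which used no measured value, found 97 probes for 75 genes among 24048 probes, of which 19398 carried a single symbol (14776 genes). The genes comprised 47 Mrpl genes with 59 probes, named for the large subunit, and 28 Mrps genes with 38 probes, named for the small subunit. Of these genes, 57 had 1 probe, 14 had 2 and 4 had 3. They lay on 17 chromosomes, with 11 of them on chromosome 11 and 0 on the X chromosome.

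The mitochondrial ribosome translates the few messenger RNAs of the mitochondrial genome, which encode core subunits of the respiratory chain and of ATP synthase. Its RNA comes from the mitochondrial genome, but all of its proteins are encoded in the nucleus, made in the cytosol and imported. Some of them have a counterpart in the bacterial ribosome, whereas others are found only in mitochondria, and organs with many mitochondria, such as the heart, hold many of these ribosomes.

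Male BALB/c mice on a normal diet, from which liver, spleen and heart were taken, had drunk either oil palm phenolics (OPP), an aqueous extract of oil palm fruit containing water-soluble phenolic compounds, at 1500 ppm gallic acid equivalents, or distilled water (control), for 6 weeks until 12 weeks of age. No transgene or deletion was involved, and all mice were fasted overnight before tissue collection. Each of the 23 arrays held the RNA of 1 organ of 1 mouse. There were 4 OPP and 4 control arrays for spleen and heart, and 3 OPP and 4 control arrays for liver, outlying arrays having been dropped in the study. Within an organ, p-values measure the spread between these animals. Arrays of different organs may come from the same mouse, but the labels do not tie organs to mice. Comparisons between organs therefore took all arrays as independent. The mice of a group shared cages, so cage and treatment cannot be told apart, and the RNA samples of highest integrity had been chosen for hybridisation.

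Values are log2 intensities after background correction and quantile normalisation. A probe entered the test if at least 3 arrays of either group detected it at p under 0.01, and it was called at an unadjusted p under 0.01, the level used in the study, or at an adjusted p under 0.05, in limma's moderated test. The median background intensity ran from 151 to 354 on the liver arrays, 64 to 84 on the spleen arrays and 50 to 61 on the heart arrays. Summed over its 7 array probes, the cardiomyocyte marker list reached 17.39 to 17.48 on OPP hearts and 17.42 to 17.44 on control hearts, and at most 8.33 on any liver or spleen array. The hepatocyte list reached 16.80 to 17.13 on livers and at most 10.23 elsewhere. All 4 probes of exocrine pancreas genes, which spleen should lack, were detected on every spleen array (summed 15.94 to 16.90 in OPP and 16.25 to 17.30 in control spleens) and on 0 heart arrays. As whole organs were used, fewer cells of a type and less RNA per cell cannot be told apart in any of the values.

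Most mitoribosomal probes were measurable. In heart, 86 of the 97 probes (68 genes) could be tested, against 81 (64 genes) in spleen and 72 (62 genes) in liver, and 84, 78 and 60 of the 97 were detected on every array of heart, spleen and liver. Another 10, 14 and 20 were detected on no array of these organs, and 11 probes were tested in none. The 7 genes left without any tested probe were Mrpl15, Mrpl21, Mrpl32, Mrpl48, Mrps14, Mrps22 and Mrps36. The genes Mrpl13, Mrpl35, Mrpl39, Mrpl45, Mrpl57 and Mrps25 could be tested in heart but not in liver. The median SD of a tested probe among controls was 0.083 in heart, 0.17 in spleen and 0.21 in liver.

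In heart, 6 of the 86 tested probes were called lower in OPP mice than in controls at an unadjusted p under 0.01, and 0 were called higher. All 6 encode proteins of the large subunit: Mrpl52, Mrpl19, Mrpl36, Mrpl13, Mrpl39 and Mrpl20. Their decreases were small, between 0.21 and 0.43 on the log2 scale. Of all 9172 probes tested in heart, 2.7% were called lower and 1.91% higher, so 6 lower probes of 86 (6.98%) stood above the share over the array and 0 higher probes below it. After adjustment over all probes, 0% of all heart probes and 0 of the 86 were called (smallest adjusted p of the 86 in limma 0.152). At an unadjusted p under 0.05, 11 of the 86 were lower and 1 was higher, against 7.85% and 6.21% of all heart probes.

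Mrpl52, a protein of the large subunit found only in mitochondria, had the largest decrease of the 6. It measured 9.52, 9.10, 9.04 and 8.94 in OPP hearts, against 9.53, 9.59, 9.63 and 9.55 in control hearts. Every OPP heart was below every control heart, although OPP heart 1 came close to the lowest control. The OPP hearts averaged 9.15 ± 0.25 and the control hearts 9.58 ± 0.05 (SD, n = 4 each), a log2 difference of -0.43 (SE 0.11, a 1.35-fold decrease, unadjusted p = 0.00262 and adjusted p = 0.152, limma). Mrpl19, the counterpart of the bacterial large-subunit protein L19, measured 8.73, 8.72, 8.46 and 8.53 in OPP hearts, against 8.94, 8.85, 8.92 and 8.96 in control hearts. These groups did not overlap either, and the log2 difference was -0.31 (SE 0.08, unadjusted p = 0.00267 and adjusted p = 0.152, limma).

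Mrpl36, the counterpart of bacterial L36 and one of the smallest proteins of the ribosome, measured 9.18, 9.0, 9.13 and 9.26 in OPP hearts, against 9.42, 9.38, 9.39 and 9.40 in control hearts. The control hearts lay close together and all OPP hearts were below them, with a log2 difference of -0.25 (SE 0.07, unadjusted p = 0.00344 and adjusted p = 0.164, limma). Mrpl20, the counterpart of bacterial L20, measured 11.31, 11.08, 11.06 and 11.19 in OPP hearts, against 11.35, 11.31, 11.38 and 11.43 in control hearts. The highest OPP heart lay just under the lowest control heart, and the log2 difference was -0.21 (SE 0.07, unadjusted p = 0.00869 and adjusted p = 0.208, limma).

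Mrpl39, a large-subunit protein found only in mitochondria, measured 9.64, 9.23, 9.27 and 9.27 in OPP hearts, against 9.69, 9.59, 9.68 and 9.67 in control hearts. Here OPP heart 1 lay within the control range while the other 3 OPP hearts were well under it, and the log2 difference was -0.31 (SE 0.09, unadjusted p = 0.00613 and adjusted p = 0.188, limma). Mrpl13, the counterpart of bacterial L13, measured 10.59, 10.46, 10.33 and 10.39 in OPP hearts, against 10.57, 10.72, 10.74 and 10.76 in control hearts. The groups overlapped through OPP heart 1 and control heart 1, with a log2 difference of -0.25 (SE 0.07, unadjusted p = 0.00439 and adjusted p = 0.174, limma). Its other, dimmer probe differed by -0.52 (SE 0.18, unadjusted p = 0.013, adjusted p = 0.235, limma). OPP heart 1 was the highest OPP heart in 5 of the 6 probes, with Mrpl36 as the exception.

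**Figure D1:**
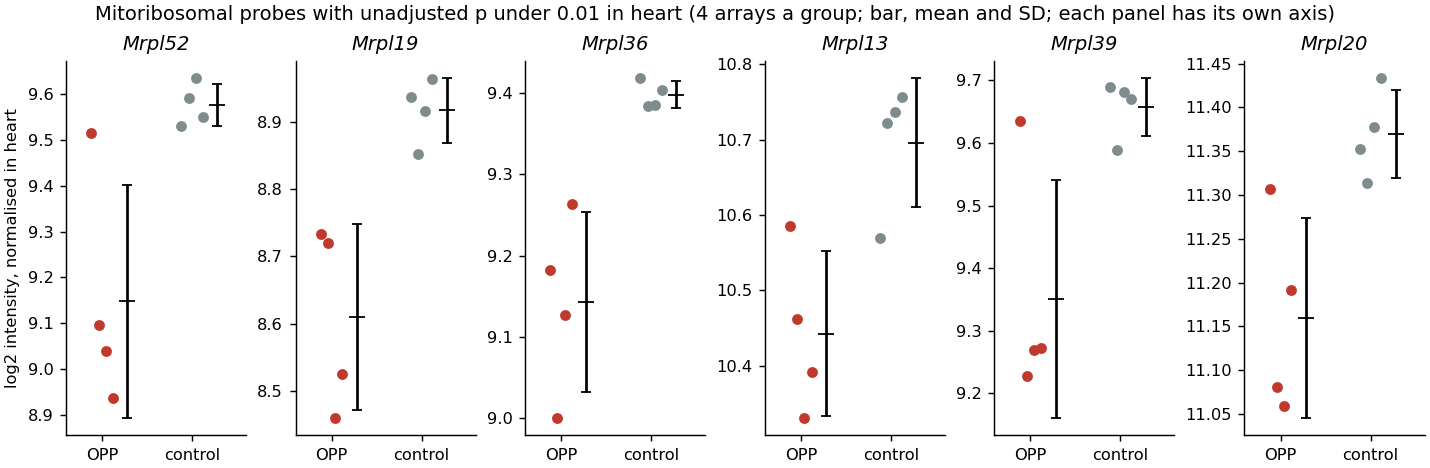
Each point is the log2 intensity (y axis, normalised within heart) of 1 heart array, with OPP hearts on the left and control hearts on the right of each panel, and bars give the mean and SD of 4 arrays. The OPP means lie 0.21 to 0.43 below the control means, and in Mrpl52, Mrpl13, Mrpl39 and Mrpl20 the highest OPP point comes close to or into the control range.

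Sequence is given for the genes of this set that had an entry in the RefSeq promoter table (mouse build GRCm38.p6), to show which motifs their proximal promoters held. The 250 bases before the annotated start were searched on both strands for 3 motifs of factors known to act on nuclear genes of mitochondrial proteins: the core of NRF1 (GCATGCGC), of ETS factors such as GABPA (CCGGAAG) and of YY1 (AAGATGGC). Capitals mark matches on either strand, and each sequence reads 5′ to 3′ on the strand of its gene. Mrpl52 (chr14:54426659-54426908, plus strand) had 1 ETS match, on the opposite strand and starting 47 bases before the gene. Mrpl36 (chr13:73330759-73331008, plus strand) had 1 YY1 match, on the opposite strand and 30 bases before the start used in the promoter table. This window lies inside the full annotated span of Mrpl36 (73328503 to 73332178), so it does not precede the outermost start of that gene. Mrpl39 (chr16:84735245-84735494, minus strand) had 2 overlapping NRF1 matches, 125 and 123 bases before the gene. They lie on opposite strands of a single stretch, GCGCATGCGC, which reads the same on both strands, and so are not separate places. Mrpl20 (chr4:155802628-155802877, plus strand) had 0 matches. Mrpl19 and Mrpl13 had no entry.
Mrpl52: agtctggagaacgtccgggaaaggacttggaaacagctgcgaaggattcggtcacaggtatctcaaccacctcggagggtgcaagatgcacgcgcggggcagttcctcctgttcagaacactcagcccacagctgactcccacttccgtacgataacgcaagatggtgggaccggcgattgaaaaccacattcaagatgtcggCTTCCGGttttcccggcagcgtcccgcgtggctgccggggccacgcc
Mrpl36: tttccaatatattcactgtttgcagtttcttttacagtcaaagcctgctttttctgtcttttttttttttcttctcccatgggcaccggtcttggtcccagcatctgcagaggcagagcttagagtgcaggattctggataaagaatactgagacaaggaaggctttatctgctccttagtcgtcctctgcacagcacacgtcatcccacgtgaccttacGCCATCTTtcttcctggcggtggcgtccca
Mrpl39: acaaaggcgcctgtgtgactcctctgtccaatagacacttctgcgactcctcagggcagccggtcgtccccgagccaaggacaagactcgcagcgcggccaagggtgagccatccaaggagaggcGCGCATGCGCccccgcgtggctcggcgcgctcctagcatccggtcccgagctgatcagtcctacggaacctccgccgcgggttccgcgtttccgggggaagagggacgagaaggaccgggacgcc
Mrpl20: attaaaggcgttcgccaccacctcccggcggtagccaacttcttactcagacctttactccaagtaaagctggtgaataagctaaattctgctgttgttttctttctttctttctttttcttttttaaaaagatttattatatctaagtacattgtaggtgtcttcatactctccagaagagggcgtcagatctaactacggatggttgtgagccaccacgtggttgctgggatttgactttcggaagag
Of the 75 genes, 66 had an entry. The NRF1 core was found in 8 of these 66 promoters (12.1%), the ETS core in 17 (25.8%) and the YY1 core in 4 (6.06%), and 26 (39.4%) held at least 1 of the 3. Over the promoters of all 27025 genes in the table the shares were 2.56%, 7.83%, 1.83% and 11.5%, and over the 6520 genes tested in at least 1 organ they were 4.98%, 15.3%, 2.44% and 21%. The genes with an NRF1 match were Mrpl9, Mrpl10, Mrpl17, Mrpl22, Mrpl32, Mrpl33, Mrpl39 and Mrps18b. A match describes letters in the sequence and not a bound site.

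Subunits were taken from gene names, here and in the organ contrasts, so Mrps18a counted as small although it is now placed in the large subunit. Of the 53 tested large-subunit probes in heart, 6 were called lower and 0 higher (median log2 difference -0.03). Of the 33 small-subunit probes, 0 were called in either direction (median 0.02), and at an unadjusted p under 0.05 there were 3 lower and 1 higher, beside the 7.85% and 6.21% of all heart probes, so their number did not stand out. The difference between the subunits was not tested. The 3 lower small-subunit probes belonged to Mrps11, Mrps6 and Mrps10. Mrps11, the counterpart of bacterial S11, measured 7.46, 7.53, 7.54 and 7.49 in OPP hearts, against 7.73, 7.63, 7.78 and 7.81 in control hearts, without overlap (-0.23, unadjusted p = 0.0104, adjusted p = 0.218, limma). Mrps6, the counterpart of bacterial S6, measured 9.95, 9.89, 9.84 and 9.69 in OPP hearts, against 10.09, 9.98, 10.03 and 10.07 in control hearts, also without overlap (-0.20, unadjusted p = 0.0117, adjusted p = 0.227, limma). The higher probe belonged to Mrps35, a small-subunit protein found only in mitochondria, which measured 8.44, 8.40, 8.59 and 8.53 in OPP hearts, against 8.33, 8.16, 8.31 and 8.29 in control hearts (0.22, unadjusted p = 0.012, adjusted p = 0.228, limma).

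Among the 86 probes, 7 (8.14%) had every OPP heart below every control heart (Mrpl19, Mrpl20, Mrpl36, Mrpl52, Mrps6, Mrps11 and Mrps12), against 4.51% of all heart probes, and 1 (1.16%), Mrps35, had every OPP heart above every control heart, against 3.46%. As a set the genes barely moved, since 37 of 86 differences were positive and their median was -0.02, against 0.0035 over all heart probes. Genes numbered like a bacterial protein (large subunit up to 36, small subunit up to 21) gave 4 lower calls of 47 probes and those with higher numbers 2 of 39. Leaving out 1 heart array at a time gave 3 to 9 calls, with 3 calls without control heart 3, control heart 4 or OPP heart 3 and 9 without OPP heart 1. With median scaling 20 probes were lower and 0 higher, beside 1032 lower and 29 higher of all heart probes, and in a single fit of all organs none of the 6 kept its call, the 1 probe called being the dimmer one of Mrpl13. The background intensity of OPP hearts (49.6 to 54.2) was below that of every control heart (56.6 to 61.0), and the part of this in the result was not tested. Marker lists were also compared in heart. Of 7 cardiomyocyte probes 1 was called higher and 1 lower. The adipocyte list (7.10 to 10.25 in OPP and 7.92 to 9.80 in control hearts) had 0 called probes of 3. So did the platelet list (9.76 to 10.46 in OPP and 10.07 to 10.46 in control hearts). All 3 tested proliferation probes were lower in OPP hearts (summed 8.80 to 8.91, against 8.91 to 9.68 in control hearts, 0 called and 2 at an unadjusted p under 0.05), and 1 of 3 hepatocyte probes was called lower (8.36 to 8.47 in OPP and 8.45 to 9.33 in control hearts). The neutrophil (8.11 to 11.10 in OPP and 7.55 to 10.49 in control hearts) and erythroid lists (9.74 to 11.01 in OPP and 9.29 to 10.89 in control hearts) had 0 called probes of 4 and 2, and the part of these lists in the result was not tested.

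In liver, 0 of the 72 tested probes were called in either direction by limma at an unadjusted p under 0.01, and the methods' t-test called 0 as well. Over all 6434 liver probes 2.13% were called higher and 0.793% lower, and 0% at an adjusted p under 0.05. At an unadjusted p under 0.05, 5 mitoribosomal probes were higher and 0 lower, against 6.37% and 4.8% of all liver probes, and 44 of 72 differences were positive, with a median of 0.04 against -0.03 over all liver probes. Every OPP liver lay above every control liver for 4 probes (5.56%, against 6.53% of all probes), of Mrpl24, Mrpl4, Mrps26 and Mrps7, and below for 1 (1.39%, against 5.89%), of Mrpl23. These shares were no larger than those over the array.

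The smallest liver p belonged to Mrpl24, the counterpart of bacterial L24, which measured 10.59, 10.86 and 10.59 in OPP livers, against 10.36, 10.36, 10.30 and 10.02 in control livers. The groups did not overlap, and control liver 4 was the lowest array (difference 0.42, SE 0.14, unadjusted p = 0.0154, adjusted p = 0.365, limma). Mrps26, a small-subunit protein found only in mitochondria, measured 7.36, 7.34 and 7.67 in OPP livers, against 7.09, 7.05, 7.13 and 6.59 in control livers (0.49, unadjusted p = 0.0435, adjusted p = 0.432, limma). Control liver 4 was again the lowest, and the probe was detected on 3 of the 4 control livers. Mrps35 measured 7.72, 8.21 and 8.20 in OPP livers, against 7.79, 7.64, 7.42 and 7.44 in control livers (0.47, unadjusted p = 0.034, adjusted p = 0.418, limma), with OPP liver 1 inside the control range. Mrps18b, a small-subunit protein, and Mrpl4, the counterpart of bacterial L4, differed by 0.50 (unadjusted p = 0.0453, limma) and 0.37 (unadjusted p = 0.0474, limma).

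Control livers 3 and 4 stood apart in neutrophil genes, with a mean log2 intensity of 12.50 and 11.04 over the tested neutrophil probes, against 5.53 to 9.24 in the 3 OPP livers and 7.40 and 6.79 in control livers 1 and 2. These 2 arrays also had the lowest mitoribosomal values of the livers, with a median deviation from the control mean of -0.10 and -0.15, against -0.03 to 0.18 in OPP livers and 0.05 and 0.20 in the other control livers. Without them the median mitoribosomal difference was -0.10 and the number of calls stayed at 0. In a single fit of all organs, where 86 probes passed the filter against 72 in liver alone, 6 were called higher and 1 lower in liver. Among the higher ones was the probe of Mrpl39, which was not above background on any liver array. The share over all probes in that fit is not given here. Since control livers 3 and 4 had the lowest values, a lower median difference without them followed from the choice of arrays. Leaving out 1 liver array at a time gave medians of -0.0065 to 0.13, so the sign of this small median was not stable. Without control livers 3 and 4 the 5 named probes stayed higher in OPP livers, by 0.26 to 0.39. OPP liver 3 had the highest background intensity of all (354, against 151 to 175 on the other livers), and 62 of the 97 probes were detected on it.

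In spleen, 0 of the 81 tested probes were called in either direction by limma or by the methods' t-test, and 0 reached an unadjusted p under 0.05, against 4.53% higher and 2.38% lower of all spleen probes. Over all 8582 spleen probes 1.17% were called higher and 0.524% lower, and 0% after adjustment. Small negative differences were in the majority: 22 of 81 were positive and the median was -0.05, against -0.0022 over all spleen probes, and with median scaling the median was 0.01. The smallest p belonged to Mrps18a, which is named for the small subunit but is now placed in the large one. It measured 8.52, 8.46, 8.55 and 8.38 in OPP spleens, against 8.75, 8.54, 8.71 and 8.65 in control spleens, with OPP spleen 3 just above control spleen 2 (-0.19, SE 0.09, unadjusted p = 0.0562, adjusted p = 0.739, limma). Mrpl33, the counterpart of bacterial L33, was the only probe with every OPP spleen above every control spleen (1.23%, against 2.16% of all probes), at 11.34, 11.34, 11.28 and 11.18 in OPP spleens, against 11.02, 11.12, 11.15 and 11.18 in control spleens (0.17, unadjusted p = 0.0565, adjusted p = 0.74, limma). For 0 probes did every OPP spleen lie below every control spleen, against 1.44% of all probes.

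The next probes in spleen were those of Mrpl39 (-0.24, adjusted p = 0.788, limma), Mrpl19 (0.28, adjusted p = 0.804, limma) and the dimmer one of Mrpl13 (-0.26, adjusted p = 0.804, limma), and in all of them the groups overlapped. Among the marker lists of other blood cells in spleen, 5 of 6 platelet probes were called higher (summed 13.02 to 13.48 in OPP and 11.62 to 13.01 in control spleens), and of 10 neutrophil probes 1 was called higher and all 10 were higher at an unadjusted p under 0.05 (16.57 to 17.28 in OPP and 15.18 to 16.82 in control spleens). The part of these cells in the mitoribosomal values was not tested.

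**Figure D2:**
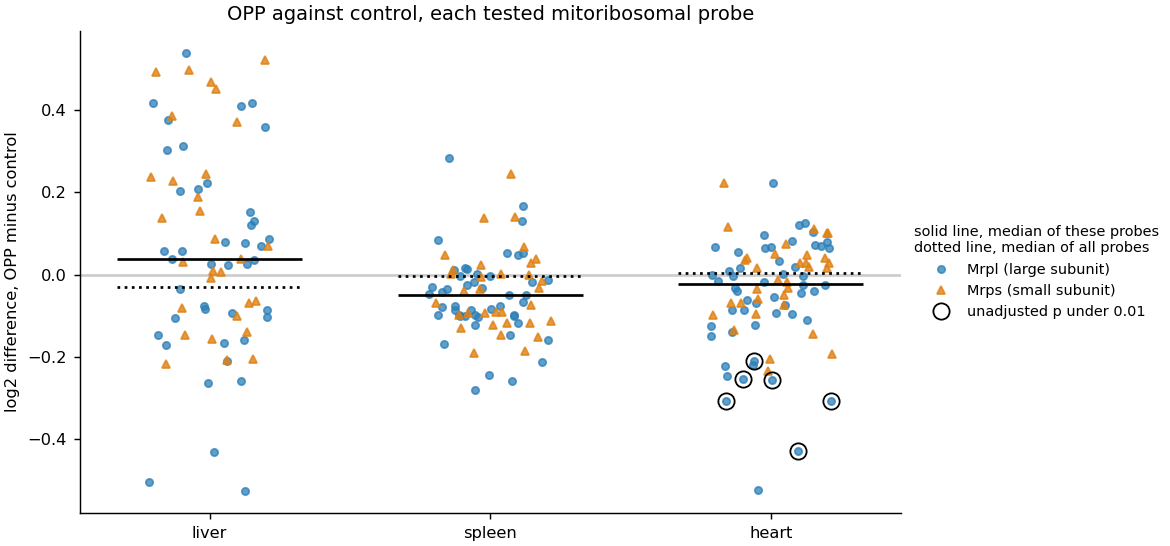
Each point is the log2 difference between OPP and control (y axis) of 1 tested mitoribosomal probe in liver (72), spleen (81) or heart (86), with circles for Mrpl and triangles for Mrps genes. Solid lines mark their medians (0.04, -0.05 and -0.02) and dotted lines those of all probes, and the 6 ringed points are the heart probes called at an unadjusted p under 0.01.

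Whether the OPP effect differed between organs was tested as an interaction over all 23 arrays normalised together, with 86 mitoribosomal probes among 11212. For the effect in liver minus that in spleen 0 of 86 were called at an adjusted p under 0.05, against 0.0803% of all probes, for liver minus heart 0 against 0.0624%, and for spleen minus heart 0 against 0%. At an unadjusted p under 0.05, limma gave 8 higher and 2 lower probes for liver minus spleen (5.52% and 7.64% of all probes), 9 and 0 for liver minus heart (5.2% and 6.22%), and 0 and 0 for spleen minus heart (2.19% and 1.51%). Mrpl39 had the smallest p in the liver comparisons, with an adjusted p of 0.133 against spleen and 0.134 against heart (limma), but its probe was not above background on any liver array. With the deposited normalised values it alone was called, at an adjusted p of 0.00582 against spleen and 0.00533 against heart (limma). For the other 5 heart probes no difference in response between organs was called with either set of values.

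Between the organs the same genes differed far more than with OPP. In control mice, 80 of the 86 probes were called higher in heart than in spleen and 1 lower at an adjusted p under 0.05, against 39.3% and 38.2% of all 11212 probes. The median log2 difference was 1.15, against 0.02 over all probes. Against liver, 63 were called higher in heart and 5 lower (44.5% and 32.9% of all probes), with a median of 0.85 against 0.19. Between liver and spleen the calls were more mixed, with 50 higher in liver and 24 lower (36.7% and 44.8% of all probes) and a median of 0.44 against -0.14. The labels give no processing batch, and any batch that followed organ could not be told apart from organ in these contrasts. The direction of the liver to spleen median depended on the scaling: with median scaling it was -0.05, against -0.55 over all probes, with 21 higher and 28 lower calls. The same scaling gave 76 higher and 1 lower for heart against liver (median 1.45, against 0.68 over all probes) and 77 and 0 for heart against spleen, and separate normalisation of each organ gave 51 and 16 for heart against liver.

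By gene, taken at the brightest probe, 46 of 68 were called higher in heart than in both other organs. A full order of heart over liver over spleen at that probe, with every step called, was found for 25 genes. Among them were Mrpl12, which forms the stalk that recruits translation factors, Mrpl42, Mrpl55, Mrpl30 and Mrpl4. Mrpl1, Mrpl47 and Mrps11 were also counted there, although another probe of each had the opposite sign between liver and spleen. Spleen was lowest against both others for 42 genes and liver for 16. No share over all genes is given beside these pattern counts, so they do not show whether such patterns were more frequent here than over the array. Of all 11212 probes, 44.5% were called higher in heart than in liver and 39.3% higher than in spleen, each contrast taken alone. Those that rest on a liver to spleen step depend on the scaling, as median scaling gave 21 probes higher and 28 lower in liver than in spleen. The liver was highest for 5 genes, Mrpl17, Mrpl27, Mrpl38, Mrpl49 and Mrps5, and the spleen for 1, Mrpl20. Another probe of Mrpl49 was higher in heart than in liver, by 0.65. Mrpl57 was called in no contrast. Both subunits showed the heart excess, with 38 higher and 4 lower of 53 large-subunit probes and 25 and 1 of 33 small-subunit probes against liver, and 48 and 1, and 32 and 0, against spleen.

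The largest excess of heart over spleen was that of Mrpl42, a large-subunit protein found only in mitochondria. It measured 11.90, 11.77, 11.87 and 11.93 in control hearts, against 8.47, 8.77, 8.68 and 9.12 in control spleens. The lowest heart was more than 2 log2 units above the highest spleen, and the difference was 3.11 (SE 0.10, 8.62-fold, adjusted p = 4.35e-17, limma). Its promoter (chr10:95501950-95502199, minus strand) held 0 matches to the 3 motifs and is shown for contrast with the sequences above.
Mrpl42: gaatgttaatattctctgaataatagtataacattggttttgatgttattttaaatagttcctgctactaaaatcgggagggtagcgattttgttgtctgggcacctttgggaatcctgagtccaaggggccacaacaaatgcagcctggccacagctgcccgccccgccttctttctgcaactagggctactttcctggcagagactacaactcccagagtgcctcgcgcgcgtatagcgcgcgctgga
Mrpl55, also found only in mitochondria, averaged 9.68 ± 0.03 in hearts and 6.79 ± 0.19 in spleens (SD, n = 4 each), a difference of 2.89 (adjusted p = 4.1e-16, limma). Mrpl30, the counterpart of bacterial L30, averaged 11.55 ± 0.10 in hearts and 9.12 ± 0.08 in spleens (2.43), and Mrpl4 9.98 ± 0.04 in hearts and 7.82 ± 0.32 in spleens (2.16). The one probe lower in heart than in spleen was that of Mrpl20, with 11.55, 11.50, 11.57 and 11.63 in hearts, against 11.93, 11.84, 11.96 and 12.16 in spleens (-0.41, SE 0.16, adjusted p = 0.0225, limma).

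The largest differences from liver concerned genes that the liver arrays hardly detected. Mrpl13 averaged 10.89 ± 0.08 in hearts and 5.92 ± 0.77 in livers (SD, n = 4 each), where it was detected on 1 of 4 control arrays, so that the size of the difference rests on values near background (adjusted p = 2.6e-14, limma). Mrpl39 averaged 9.91 in hearts and 5.02 in livers, where it was not well above background on any array, so that it was at least 8.72-fold higher in heart (adjusted p = 6.54e-19, limma). Such a bound sets the brighter mean against the higher of the probe's own value and the dimmest detected signal of each array. Wherever a bound is given, the p-value beside it tests the difference computed with the values near background, and not the bound. Mrps25, a small-subunit protein found only in mitochondria, averaged 8.96 in hearts and 5.54 in livers, at least 4.54-fold higher (adjusted p = 3.91e-11, limma), and a probe of Mrpl1, the counterpart of bacterial L1, averaged 9.41 in hearts and 5.58 in livers, at least 6.19-fold higher (adjusted p = 5.09e-12, limma). The second probe of Mrpl1 was detected on every control liver, at 9.15 ± 0.33, so that the 2 probes gave different accounts of this gene.

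In total 8 probes of 6 genes were at such a bound against liver, and with them at their bound the median over the 86 was 0.79. Mrpl17, the counterpart of bacterial L17, was the clearest exception, with 10.86, 11.09, 10.76 and 10.95 in hearts, against 11.93, 12.22, 12.35 and 12.09 in livers. The groups were well apart, with a difference of -1.23 (SE 0.13, adjusted p = 1.24e-08, limma). Mrps5 (-0.57, adjusted p = 2.2e-05), Mrpl49 (-0.36, adjusted p = 0.00922) and Mrpl38 (-0.32, adjusted p = 0.0119) were also lower in heart than in liver in limma, but with median scaling Mrpl38 and this probe of Mrpl49 turned to 0.10 and 0.13.

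**Figure D3:**
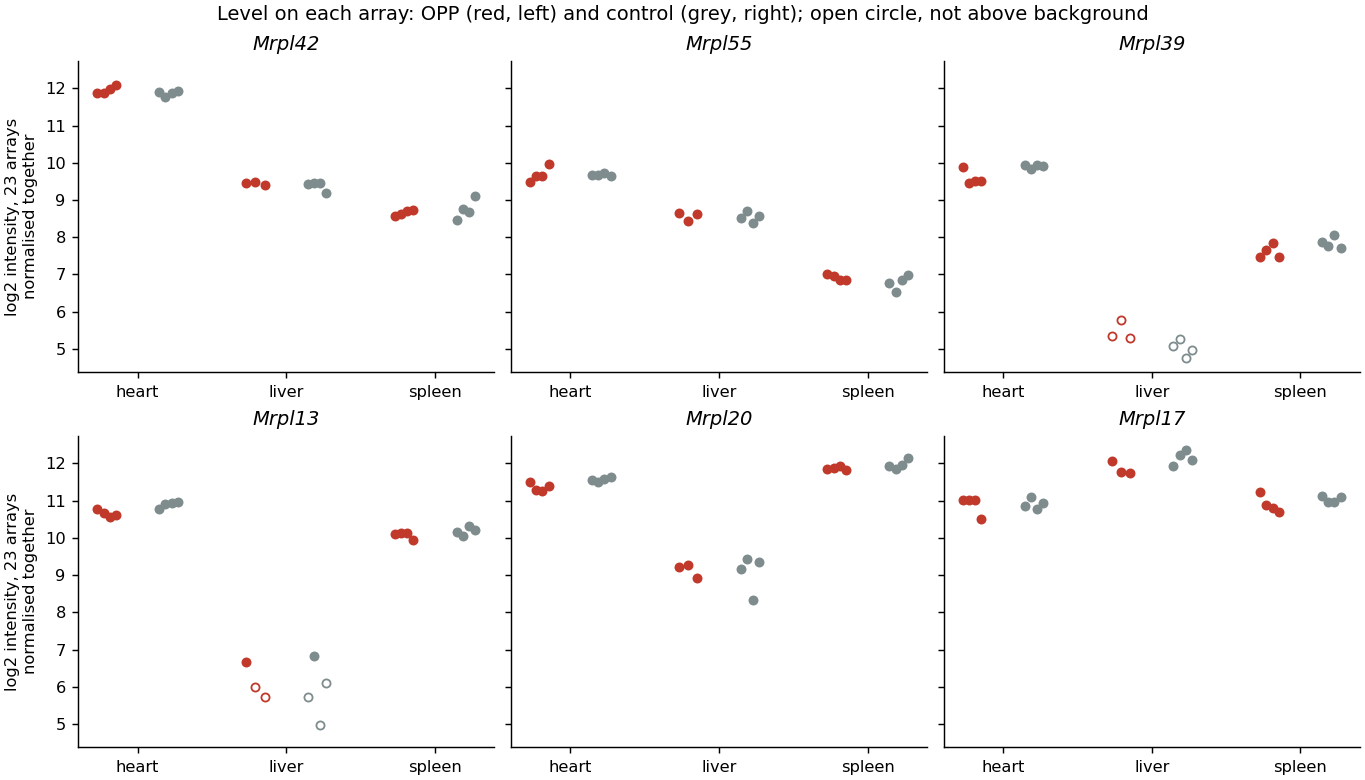
Each point is the log2 intensity (y axis, 23 arrays normalised together) of 1 array in heart, liver and spleen, with OPP arrays left and control arrays right within each organ, and open circles mark arrays on which the probe was not above background. Mrpl42 and Mrpl55 fall stepwise over heart, liver and spleen, Mrpl39 and Mrpl13 are near background in liver, Mrpl20 is highest in spleen and Mrpl17 in liver.

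Between liver and spleen, Mrpl14, the counterpart of bacterial L14, was the most liver-rich of the genes, with 11.10, 11.25, 10.89 and 11.02 in livers, against 9.05, 9.13, 9.04 and 9.36 in spleens (1.92, SE 0.09). Mrpl55 (1.75) and Mrpl38 (1.47) followed, and Mrpl10, which anchors the stalk, averaged 7.35 in livers and 5.62 in spleens, where it was not well above background on any array, at least 2.62-fold higher (adjusted p = 9.05e-10, limma). In the opposite direction, Mrpl20 measured 9.17, 9.43, 8.32 and 9.34 in livers, against 11.93, 11.84, 11.96 and 12.16 in spleens (-2.91, SE 0.16, adjusted p = 1.63e-13, limma). Mrpl13 averaged 5.92 in livers, with 1 of 4 arrays detected, and 10.19 in spleens (adjusted p = 3.96e-13, limma). Mrpl39 averaged 5.02 in livers and 7.85 in spleens (at least 2.10-fold lower, adjusted p = 1.37e-14, limma) and Mrps25 5.54 in livers and 7.87 in spleens (at least 2.13-fold lower, adjusted p = 2.11e-08, limma). With median scaling all of these probes kept their direction.

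**Figure D4:**
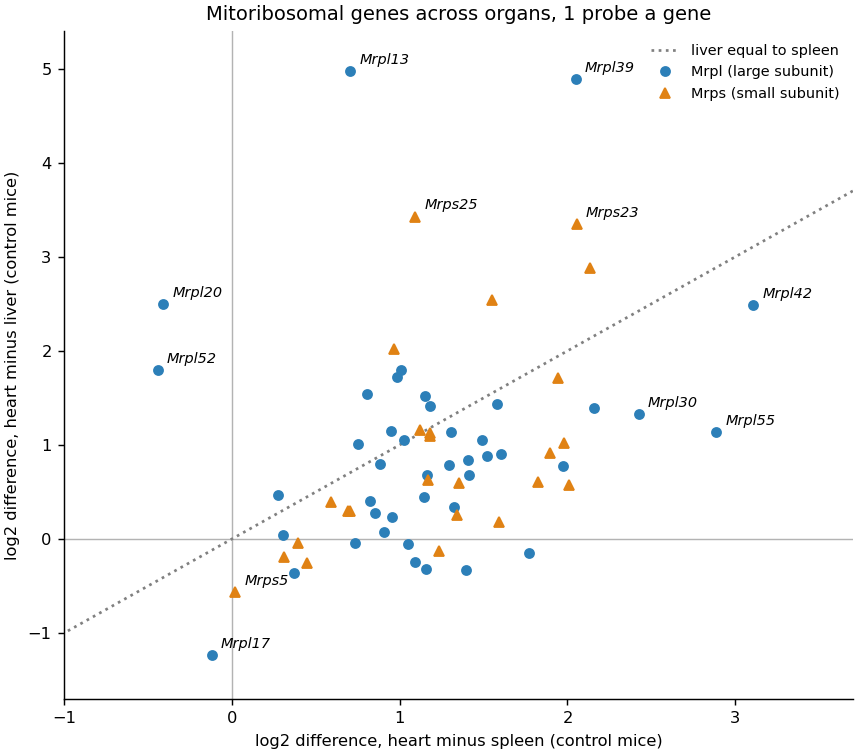
Each point is 1 of 68 genes at its brightest probe, with its log2 difference between heart and spleen (x axis) and between heart and liver (y axis) in control mice, and both axes share the heart arrays. Most genes lie right of and above 0, with Mrpl13 and Mrpl39, both near background in liver, close to 5 on the y axis, Mrpl42 at 3.11 on the x axis, and genes above the dotted line are lower in liver than in spleen.

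Some genes gave different accounts by probe. Between liver and spleen, probes of Mrpl1, Mrpl37, Mrpl47, Mrpl49, Mrps10 and Mrps11 differed in sign with at least 1 of them called, and between heart and liver those of Mrpl49 and Mrps12. For Mrps10, the counterpart of bacterial S10, one probe was higher in liver than in spleen by 1.34 and the other lower by 1.05 (a difference of -1.05). For Mrpl47, the counterpart of bacterial L29, one probe averaged 8.42 in livers and 7.69 in spleens (0.73), and the other 4.81 in livers, where it was not well above background, and 7.07 in spleens (at least 1.22-fold lower, adjusted p = 3.91e-14, limma). For Mrps12, the counterpart of bacterial S12, one probe was higher in heart than in liver by 0.55 (adjusted p = 0.00022, limma) and the other differed by -0.05 (adjusted p = 0.782). The probes of a gene may read different transcripts, so these genes have no single organ order here.

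The mitoribosomal genes were set beside the genes whose products work with them. Of the respiratory chain and ATP synthase subunits encoded in the nucleus, 71 of 77 probes were called higher in heart than in liver and 4 lower (median 2.03), and 73 and 4 against spleen (median 2.21), beside medians of 0.85 and 1.15 for the mitoribosomal probes. The cytosolic ribosomal proteins ran differently: 65 of 77 probes were higher in heart than in liver and 8 lower (median 0.78), but 2 were higher and 69 lower in heart than in spleen (median -0.93), and 2 higher and 70 lower in liver than in spleen (median -1.77). These directions were the same under each scaling tried, whereas the liver to spleen median of the respiratory chain probes (0.13, with 33 higher and 24 lower) was -0.08 with median scaling. Of 11 probes of mitochondrial translation factors, 10 were higher in heart than in spleen and 0 lower, but against liver 6 were higher and 4 lower. Of 9 probes of mitochondrial aminoacyl-tRNA synthetases 8 were higher in heart than in spleen and 0 lower, and against liver 4 were higher and 1 lower. Of 17 probes of mitoribosome assembly and rRNA modification factors 9 were higher in heart than in spleen and 2 lower, but against liver 5 were higher and 5 lower (median 0.04, against 0.19 over all probes). The counts of these last lists against liver depended on the scaling. With median scaling they were 8 higher and 1 lower for translation factors, 8 and 1 for synthetases and 11 and 1 for assembly factors. The median over all probes was then 0.68. With organs normalised separately they were 6 and 5, 2 and 3, and 5 and 8.

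**Figure D5:**
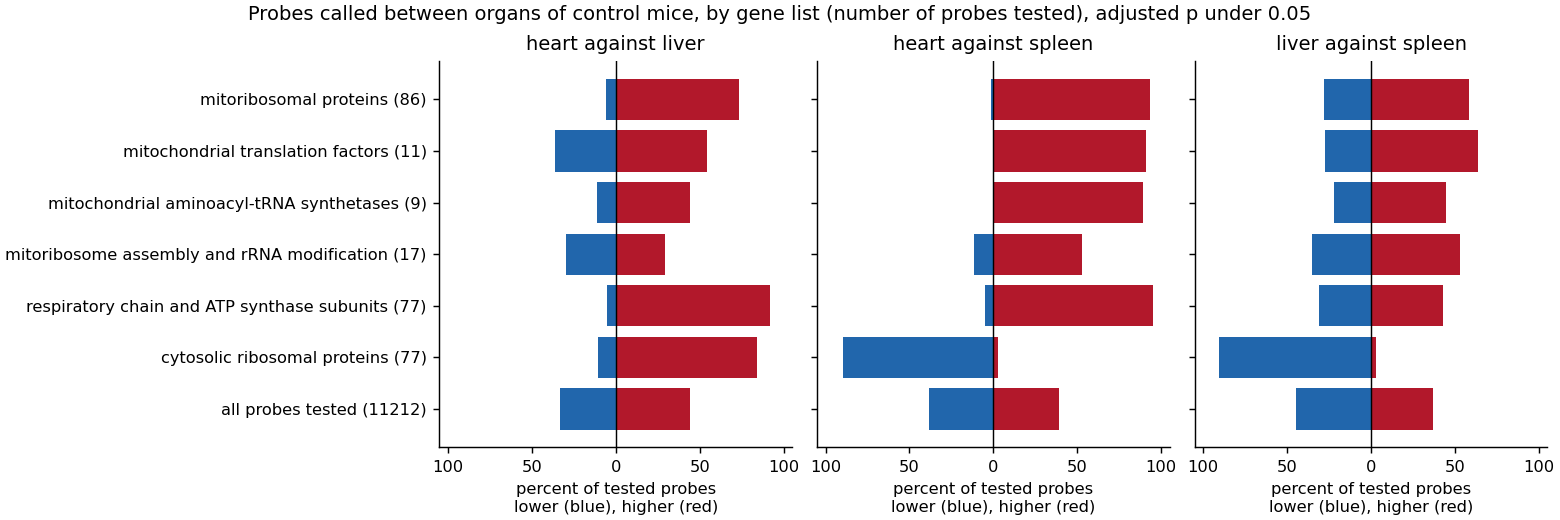
Bars give the percent of the tested probes of each gene list (number in brackets) called higher (red, to the right) or lower (blue, to the left) in the first-named organ of each panel at an adjusted p under 0.05, in control mice. Mitoribosomal probes are mostly higher in heart in both heart panels, while those of cytosolic ribosomal proteins turn to lower against spleen.

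With OPP, the respiratory chain and ATP synthase list had 10 of 76 heart probes called lower and 0 higher (median -0.03), led by Ndufc2 (-0.59, SE 0.10, unadjusted p = 0.000122, adjusted p = 0.118, limma) and Ndufb4 of complex I and Atp5k and Atp5pb of ATP synthase (-0.39, -0.43 and -0.36). Of 75 cytosolic ribosomal protein probes 6 were called lower and 0 higher, and 10 differences were positive (median -0.08, the lowest being Rpl30 at -0.51 and the smallest p that of Rps6 at -0.39, unadjusted p = 0.000667, limma). Of all heart probes, 2.7% were called lower and 1.91% higher. With median scaling the respiratory chain and cytosolic ribosomal lists had 26 and 33 lower and 0 higher. Under that scaling the calls over all heart probes turned mostly to lower as well, as given above. Of 11 translation factor probes 1 was called lower, Mtif2, the factor that brings the initiator tRNA to the mitochondrial ribosome (-0.43, SE 0.12, unadjusted p = 0.00488, adjusted p = 0.182, limma), and of 7 probes for mitochondrial DNA maintenance and transcription 1 was called higher, Polg, the mitochondrial DNA polymerase (0.40, SE 0.12, unadjusted p = 0.00743, adjusted p = 0.197, limma). No probe of the mitoribosomal proteins with other names, the synthetases, the assembly factors or the regulators of mitochondrial gene expression was called in heart, and in liver 0 probes of any of these lists were called. In spleen 1 probe was called, that of the complex I subunit Ndufa5, which was lower (-0.26, unadjusted p = 0.00923, limma).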

How the data were processed

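RNA of each organ was hybridised to Illumina MouseRef-8 bead arrays, read by the submitters with BeadStudio (version 1.5.1.3 in their processing notes). The authors deposited non-normalised probe intensities with a detection p-value for each array. The authors also deposited rank-invariant normalised intensities, which are a straight line of the raw values within each array and served as an alternative after a floor of 10. In R 4.3.3, intensities were background corrected with limma 3.58.1 (nec, detection p-values, offset 16), quantile normalised per organ and put on the log2 scale. Probes detected at p under 0.01 on at least 3 arrays of a group were fitted with limma (lmFit, eBayes with trend), with Benjamini-Hochberg adjustment over all tested probes. Organ contrasts and interactions used the 23 arrays normalised together, with 6 groups. Probes were named from the platform annotation, and all 97 symbols matched RefSeq, the source of the promoters. The steps were tested on simulated data.

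The members, gene lists and tests were chosen with earlier results of these data known. Named probes were those under an unadjusted p of 0.01 (the 5 smallest where fewer than 5 passed), the 4 largest organ differences each way, probes of a gene that differed in sign, and up to 4 genes of each related list. Mrps6, Mrps11, the genes of the organ patterns and Mrps35 in heart were named after their values were seen. Alternatives were no background correction, median scaling, the deposited values, no filter, all organs in 1 fit, organs normalised separately, OPP arrays for the organ contrasts, each array left out, a replicate block and an unpaired Student's t-test. The number of arrays limits the precision. The study's own error model was not used here.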

Additional observations from a re-analysis of the deposited data

Results flagged for a closer look

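In each group of 4 arrays, the gap between an extreme array and its nearest neighbour was set against the whole range of the group. Of 183 groups of named probes tested in this way, 8 held an array that stood apart at the 95% level, and chance alone flags about 1 in 20 groups. Control liver 4 stood apart on the low side for 4 genes: Mrpl24 at 10.0193 (other control livers 10.30 to 10.36), Mrps26 at 6.58838 (7.05 to 7.13), Mrpl4 at 8.36784 (8.69 to 8.75) and Mrpl42 at 9.31669 (9.57 to 9.60). OPP heart 1 stood apart on the high side for Mrpl39, at 9.63523 (other OPP hearts 9.23 to 9.27), and OPP heart 4 on the low side for Mrpl17, at 10.2667 (10.82 to 10.83). Control heart 1 was high for Mrpl38, at 10.1093 (9.81 to 9.84), and control spleen 2 low for Mrpl37, at 10.1016 (10.22 to 10.23).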

How the results depend on the processing

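Of 897 values of named probes under the alternatives, 809 kept their direction and their side of the threshold, 63 lost the call, 8 gained one and 17 turned round, and the cause was not tested. With all organs in 1 fit, 7 liver probes were called (6 higher, of Mrpl24, Mrpl39, Mrpl53, Mrps5, Mrps26 and Mrps35, and 1 lower, of Mrpl47), and all 6 heart calls were lost, the 1 heart probe called being the dimmer one of Mrpl13. The probe of Mrpl39 was not above background on any liver array, and the share over all probes in that fit is not given. Without the 2 control livers high in neutrophil genes, an alternative chosen after seeing the data, the liver median was -0.10 and Mrpl49 between liver and spleen 0.15. With median scaling, 20 heart probes were lower with OPP and 0 higher (1032 and 29 of all probes), with a median of -0.16 against -0.12 over all probes. It also gave a median of 1.45 for heart minus liver, and for liver minus spleen 49 calls and a median of -0.045, and it turned Mrpl49 to 0.13 and 0.41, Mrpl38 to 0.10 and Mrps12 to 0.40 for heart minus liver, and Mrpl37 to -0.71 and Mrps11 to -0.14 for liver minus spleen.

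Without background correction the heart minus liver median was 0.69 and the heart minus spleen median 0.95. Without the filter the medians were 0.68 for heart minus liver and 0.26 for liver minus spleen. With organs normalised separately they were 0.52 for heart minus liver and 0.83 for heart minus spleen, with Mrpl37 at -0.16 and Mrpl49 at 0.18 for liver minus spleen. The deposited values gave 1 call in each interaction with liver, that of Mrpl39, and Mrpl37 at -0.20 for liver minus spleen. OPP arrays in place of controls gave Mrps12 at 0.11 for heart minus liver and Mrpl49 at 0.17 for liver minus spleen. Leaving out 1 array at a time gave 3 to 9 heart calls, and ranges of -0.098 to 0.023 for Mrps12, -0.089 to 0.26 for Mrpl37 and -0.31 to 0.13 for Mrpl49. The unpaired Student's t-test called 4 heart probes, 1 higher and 3 lower.

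Replicate numbers name the arrays and need not pair them, and not every pair of arrays with the same number varied together (correlations of OPP with control from 0.012 to 0.455 in heart, 0.024 to 0.070 in liver and -0.287 to 0.318 in spleen, with 0.440 and 0.455 for heart pairs 2 and 4). With the number as a replicate block, 0 liver, 0 spleen and 4 heart probes were called, and 69, 81 and 72 in the organ contrasts in the order heart minus liver, heart minus spleen and liver minus spleen. Few arrays per group, and livers with high background, limit what small differences could be seen.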

Other observations

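The 6 heart probes called lower with OPP had an organ pattern in common. In control mice, measured on liver and spleen arrays that took no part in the heart comparison, all 6 were called lower in liver than in spleen. The log2 difference was -2.91 for Mrpl20, -2.24 for Mrpl52, -0.79 for Mrpl19 and -0.73 for Mrpl36, whereas Mrpl39, not above background on any liver array, was at least 2.10-fold lower (adjusted p = 1.37e-14, limma), and Mrpl13, detected on 1 of 4 control livers, averaged 5.92 in livers and 10.19 in spleens. These were 25% of the 24 mitoribosomal probes called lower in liver, and of the other 80 heart probes 18 (22.5%) were called lower there. Over the whole array, 194 of the 248 probes called lower with OPP in heart (78.2%) were called lower in liver than in spleen, against 38 of the 175 called higher (21.7%) and 3884 of all 9172 heart probes (42.3%). The relation was chosen after the values were seen, is given as a description and was not tested.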
